A study of Mus musculus with 3 samples.

Results

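Sterol efflux genes and other target genes of the liver X receptors were described in cultured mouse kidney cells of the mpkDCT line, named for the distal convoluted tubule, after CRISPR-Cas9 knockout of Cyp27b1. The members were 8 genes named by symbol, Abcg5, Abcg8, Abca1, Abcg1, Mylip, Apoe, Lpcat3 and Pltp, and every probe that carried 1 of these names in the scanner files was read. The genes were chosen from the same signals and detection calls that are given here. The rule gave 11 probes of the 56605 non-control probes on the array, with 2 probes for each of 3 members and 1 probe for each of the other 5. All groups carried the Cyp27b1 knockout, which removes the enzyme that turns 25-hydroxyvitamin D3 (calcidiol) into 1,25-dihydroxyvitamin D3 (calcitriol), and all were in medium lacking phenol red, with 2% serum stripped by charcoal, from 24 h before treatment. Cells then received vehicle, calcitriol at 1e-07 M or calcidiol at 1e-07 M for 24 h, and 1 array was hybridised per group. The description of the calcidiol sample writes 25(OH)2D3 where its treatment label writes 25(OH)D3, and the treatment label was followed. The labels do not say whether the knockout line was 1 clone, and they do not explain a tag, siCT, in the sample titles.

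The liver X receptors are nuclear receptors that bind oxysterols, which are oxidised forms of cholesterol, and act as heterodimers with retinoid X receptors, the same partners that the vitamin D receptor uses. Their classic target genes move sterol out of cells: Abca1 loads cholesterol and phospholipid onto apolipoprotein acceptors, Abcg1 onto high-density lipoprotein, and Abcg5 and Abcg8 form an obligate heterodimer that exports plant sterols and cholesterol across apical membranes. Other targets alter lipoproteins and membranes. Apoe and Pltp act on lipoprotein particles, Lpcat3 builds polyunsaturated phospholipids, and Mylip (also called Idol) is a ubiquitin ligase that lowers lipoprotein uptake. These genes have been studied mainly in liver, intestine and macrophages.

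Abcg5 and Abcg8 lie head to head on chromosome 17, and the stretch between their start sites is shown because both genes were higher on the hormone arrays. RefSeq promoter windows (GRCm38.p6, 250 bases before to 50 after each start) were found for 7 of the 8 members, 10 windows in all. The windows place 109 bases between the Abcg5 start and the nearer of the Abcg8 starts. The stretch is chr17:84683012-84683120 on the plus strand, which is the direction of Abcg8. Capitals mark GATAA, the core letters that GATA factors bind, and TATAAA, the TATA box, on either strand.
Abcg5/Abcg8 between starts: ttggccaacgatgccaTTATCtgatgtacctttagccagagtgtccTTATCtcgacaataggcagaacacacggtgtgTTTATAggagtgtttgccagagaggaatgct
The 3 marked stretches did not overlap, and 2 of them were GATAA. That string was present in 25.4% of the 32851 windows in the RefSeq table and TATAAA in 13.6%. Among the member windows, GATAA occurred in 2, those of this shared region, and TATAAA in 6.

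The 250 bases before the Abca1 start (chr4:53159896-53160145, minus strand, GRCm38.p6) are shown because Abca1 had the highest bound of the members with each hormone. Capitals mark, from the 5′ end, the E-box CACGTG, a direct repeat of the type bound by liver X receptors (GGTTA, any 4 bases, then CGGTCA, read here on the opposite strand) and TATAAA.
Abca1 promoter: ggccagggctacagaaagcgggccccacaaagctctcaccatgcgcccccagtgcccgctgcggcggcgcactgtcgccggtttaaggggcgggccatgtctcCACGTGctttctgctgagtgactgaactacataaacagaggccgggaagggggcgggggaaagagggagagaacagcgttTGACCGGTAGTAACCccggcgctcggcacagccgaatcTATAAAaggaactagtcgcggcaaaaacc
The 3 marked stretches did not overlap. This repeat, written from the element known in the Abca1 promoter, was present on either strand in 4 of the 32851 windows (0.0122%), and of the member windows it was found in that of Abca1 alone. Its match lay from base -67 to base -53 relative to the start. CACGTG was in 7.15% of all windows. A repeat of AGGTCA after any 4 bases was in 0.0152% of all windows. Repeats of the vitamin D receptor type, AGGTCA or GGTTCA after any 3 bases, were each in 0.00609%. None of these last 3 repeats was found in a member window on either strand.

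Values below are processed signals of the scanner software in arbitrary intensity units, and differences are on the log2 scale after each array was centred on its 75th percentile. The symbol ± gives the error that the scanner software assigns to a spot, which leaves out variation between cultures. With 1 array per group there is no replicate spread, the members were chosen with earlier results of these arrays known, and all values are a description without a test. A probe counts as measured where the software calls it well above background. Where a gene was measured on only 1 of a pair of arrays, a lower bound of the fold is given, namely the bright signal over the lowest signal well above background on the dim array, or over the dim probe's own signal if that was higher. A gene with several probes was read from its brightest. Spots well above background made up 50.98% of the total with vehicle, 49.92% with calcitriol and 49.70% with calcidiol, and the lowest such signals were 13.4, 13.8 and 17.9, in the same order. All 3 arrays lay on 1 slide. No member spot had an outlier flag, and the nearest to the array edge lay in the row numbered 9 from it. The Cyp27b1 probe did not pass the background call on any array, so it does not check the knockout. Cyp24a1, the vitamin D catabolic enzyme that serves as a check of treatment, fell short of the background call with vehicle but reached 5443 with calcitriol and 288 with calcidiol. Of 9 markers of the distal convoluted tubule, Slc12a3, Trpm6, Calb1, Klhl3, Sall3 and Emx1 did not pass the background call on any array, whereas Wnk4 and Egf passed it on all 3 and Pvalb with the hormones only. Of 7 kidney epithelial markers, Pax2, Pax8 and Cdh16 passed it on all 3 arrays, and Cdh1, Epcam, Krt8 and Krt18 on none.

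Of the 8 members, 5 were well above background on all 3 arrays, as were 45.1% of all genes. Another 2 were called on the hormone arrays but not with vehicle (0.344% of genes), 1 was called on none (50.1%), and 0 were called with vehicle alone (1.28%). Abcg5 and Abca1 were the genes absent from the vehicle call. Both were at least 2-fold higher with each hormone by their bound. No member was lower by 2-fold in any comparison. Among 731 genes called with vehicle and not with calcitriol, 14.4% were 2-fold lower by bound with calcitriol. Of 474 called with vehicle and not with calcidiol, 5.91% were 2-fold lower by bound with calcidiol. Between the hormones, 10.5% of 392 genes called only with calcitriol were 2-fold higher with it by bound. The share 2-fold lower with calcitriol was 19.9% of 759 genes called only with calcidiol. No member fell in these classes, and none of the members measured on both arrays of a pair was 2-fold apart. Mylip was the member farthest below vehicle with calcitriol, and Abcg8 was above vehicle with each hormone by less than 2-fold.

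**Figure D1:**
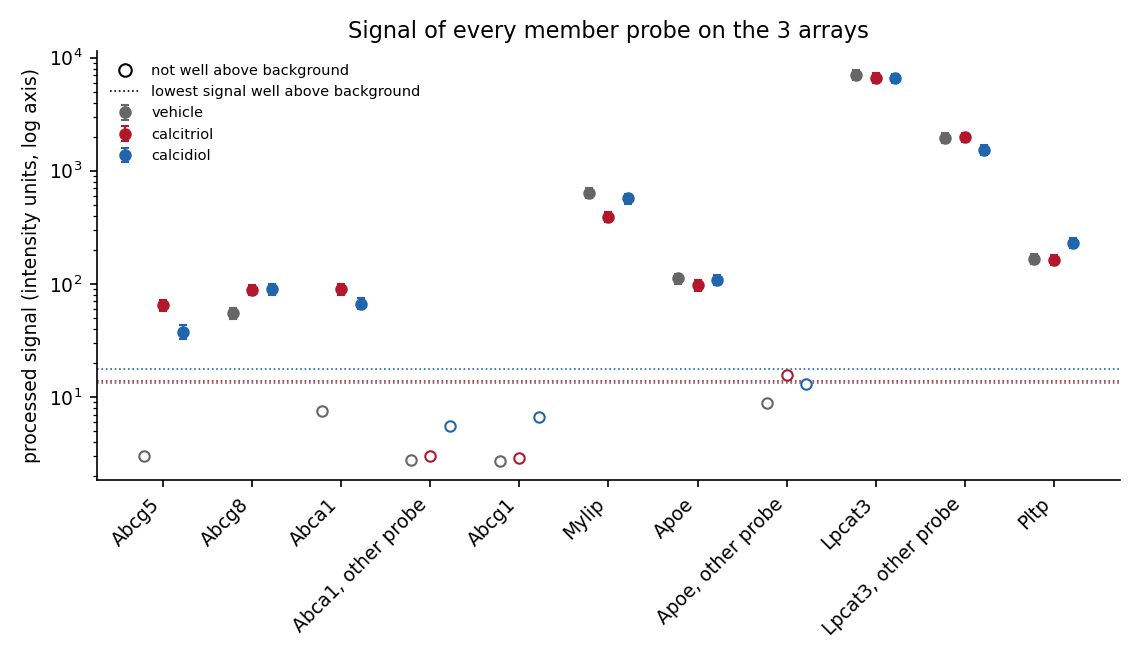
Processed signal of the 11 member probes (log axis, intensity units) on the vehicle, calcitriol and calcidiol arrays, with the scanner error as bars; open circles are probes not well above background, and dotted lines mark the lowest signal well above background on each array. The Abcg5 probe and the brighter Abca1 probe sit below these lines with vehicle and above them with each hormone, the other Abca1 probe sits below them on every array, and the probes of Mylip, Lpcat3 and Pltp lie well above the lines on every array.

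Abcg5 encodes 1 part of the apical sterol exporter. Its only probe (transcript NM_031884, chromosome 17, 85057604 to 85057663 on mm9, the build of the array) gave 3.02 with vehicle, where it was not well above background, 64.7 ± 7.23 with calcitriol and 37.9 ± 5.59 with calcidiol. The mean raw brightness of the spot, before subtraction, was 70.1, 134.8 and 108.3 on the same arrays, beside software background levels of 72.9, 73.2 and 73.4. The vehicle spot was thus no brighter than its background, and both hormone spots were. Abcg5 was at least 4.78-fold higher with calcitriol and at least 2.64-fold higher with calcidiol than with vehicle. Between the hormones Abcg5 was 0.86 ± 0.27 higher with calcitriol, a difference higher than that of 99.3% of the 16499 genes measured on both of those arrays. This difference was 1.06 with arrays centred on the median, which moved the median of all genes to 0.22. It was 0.41 with normexp, an offset of 50 and quantile normalisation together, and 0.52 with an offset of 32. Abcg5 lay below the 25th percentile of signal in that comparison, whereas the 99.3% is over genes of all levels.

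Abcg8 encodes the partner of Abcg5. Its probe (NM_026180, chromosome 17, 85099609 to 85099668, mm9) gave 54.9 ± 6.26 with vehicle, 88.7 ± 9.47 with calcitriol and 90.1 ± 9.79 with calcidiol. The hormone arrays were close to each other, and vehicle was lower than either. The differences from vehicle were 0.67 ± 0.23 with calcitriol and 0.61 ± 0.23 with calcidiol, beyond the scanner error but under 2-fold. Of all measured genes, 6.89% were as far from 0 with calcitriol and 3.81% with calcidiol. These shares are over genes of all levels, whereas Abcg8 lay below the 25th percentile of signal in each comparison. With normexp background correction, an offset of 50 and quantile normalisation together the differences were 0.34 and 0.32. Between the hormones Abcg8 differed by 0.07 ± 0.22, less than the scanner error, or by 0.27 with median centring.

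Abca1 was the other member not called with vehicle. Its brightest probe (NM_013454 from base 9917, chromosome 4, 53043944 to 53044003, mm9) gave 7.50 with vehicle, 89.4 ± 9.42 with calcitriol and 67.0 ± 7.64 with calcidiol. Raw spot brightness was 81.5, 166.3 and 141.7, beside background levels of 73.8, 73.6 and 72.5. Abca1 was at least 6.62-fold higher with calcitriol and at least 4.66-fold higher with calcidiol. Between the hormones it was 0.51 ± 0.22 higher with calcitriol, under 2-fold, and 0.33 higher with normexp, an offset of 50 and quantile normalisation together. The other Abca1 probe starts at base 6709 of the transcript, and its 60 bases span 741 bases of genome (chromosome 4, 53048405 to 53049145), so it lies across a splice junction. That probe did not pass the background call on any array, with 2.79, 3.00 and 5.60, so the Abca1 bound rests on 1 probe of 2. Whether either probe lies in coding or untranslated sequence was not analysed here.

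For the bounds the background is as follows. Among 404 genes well above background with calcitriol and not with vehicle, 20.0% had a bound of at least 2-fold. Among 724 such genes with calcidiol, the share was 17.8%. Of 36335 genes on the array, 0.344% (125 genes) had the detection pattern of Abcg5 and Abca1, being well above background with both hormones and not with vehicle, counting any probe of a gene. Of those 125 genes, 16.0% (20 genes) had bounds of at least 2-fold with both hormones. Within the 125, Abca1 ranked 11th by its calcitriol bound and 5th by its calcidiol bound, and Abcg5 ranked 13th by each. Both hormone comparisons share the single vehicle array, so the vehicle spots that set these bounds enter both. Normexp background correction, an offset of 50 and quantile normalisation together lowered the Abca1 bounds to 1.13 with calcitriol and 0.80 with calcidiol on the log2 scale, and the Abcg5 bounds to 0.79 and 0.38, which ended the 2-fold call for Abcg5 with each hormone and for Abca1 with calcidiol. An offset of 32 alone lowered the Abca1 bounds to 1.43 and 1.07 and ended the call for Abcg5 with calcidiol, at 0.58.

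**Figure D2:**
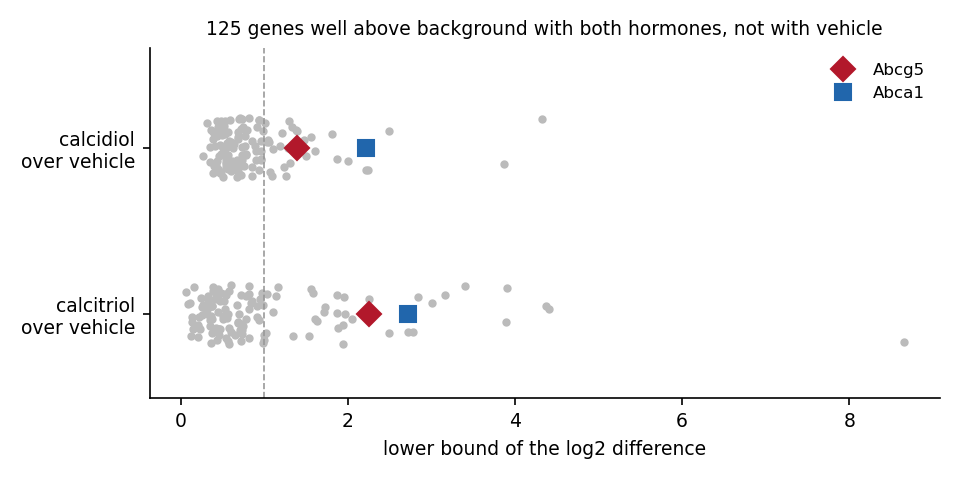
Lower bound of the log2 difference from vehicle for the 125 genes well above background with both hormones and not with vehicle (grey points, spread vertically for clarity), with Abcg5 and Abca1 in colour and the 2-fold threshold as a dashed line. Both members lie to the right of the threshold in both rows, at 2.26 and 2.73 for calcitriol and at 1.40 and 2.22 for calcidiol, while most of the grey points lie to its left.

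Abcg1, which exports cholesterol to high-density lipoprotein, did not pass the background call on any array. Its only probe (NM_009593, chromosome 17, 31252580 to 31252639, mm9) gave 2.74 with vehicle, 2.90 with calcitriol and 6.71 with calcidiol, and no fold is given. No probe under 13.4 was called on the vehicle array, so a lower level of Abcg1 was not detectable there.

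Mylip, the ubiquitin ligase, went the other way. Its probe (NM_153789, chromosome 13, 45506979 to 45507038, mm9) gave 634 ± 63.4 with vehicle, 393 ± 39.4 with calcitriol and 569 ± 57.0 with calcidiol. Calcitriol was the lowest of the 3 arrays. The differences were -0.71 ± 0.20 for calcitriol against vehicle, -0.26 ± 0.20 for calcidiol against vehicle and -0.44 ± 0.20 for calcitriol against calcidiol. With calcitriol, 3.97% of genes had a lower difference than Mylip. This difference ranged from -0.72 to -0.59 over 9 alternative settings and stayed under 2-fold in each. The changed filters on dim probes and the probe means could not move it, as Mylip has 1 probe, measured on all arrays. Median centring moved the difference between the hormones to -0.24. The 3 genes whose pair of hormone differences lay nearest to those of Mylip among 16378 genes were Nrtn, Qsox2 and Arl9, at distances of 0.02 to 0.03 on the log2 scale over 3 arrays, and 103 genes lay within 0.1. No such neighbours were sought for Abca1, which had no measured vehicle level.

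The members that act on lipoproteins were Apoe and Pltp. The brightest Apoe probe (NM_009696, chromosome 7, 20281732 to 20281791, mm9) gave 112 ± 11.5 with vehicle, 97.5 ± 10.2 with calcitriol and 109.0 ± 11.5 with calcidiol. Its differences were -0.21 ± 0.21, -0.14 ± 0.21 and, between hormones, -0.07 ± 0.21, all within or at the scanner error. The other Apoe probe, to transcript NM_001305843, did not pass the background call on any array, at 8.85, 15.6 and 13.0. Pltp, a phospholipid transfer protein (NM_011125, chromosome 2, 164665022 to 164665081, mm9), gave 167 ± 16.9 with vehicle, 163 ± 16.5 with calcitriol and 232 ± 23.5 with calcidiol. Calcidiol was the highest array for Pltp, and vehicle and calcitriol were within the error of each other. The differences were -0.06 ± 0.21 with calcitriol, 0.37 ± 0.21 with calcidiol and -0.42 ± 0.21 between the hormones, and 93.3% of genes had a lower calcidiol difference. Median centring moved the Pltp difference between the hormones to -0.22.

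Lpcat3 was read by a pair of probes that were both well above background. The brighter one (NM_145130 from base 1796, chromosome 6, 124654029 to 124654088, mm9) gave 7023 with vehicle, 6615 with calcitriol and 6573 with calcidiol, a spread smaller than the scanner error of 702 on the vehicle array. The other (from base 1422, spanning chromosome 6, 124653374 to 124653542) gave 1949, 1976 and 1524. Mean raw brightness of that second spot was 1791, 1690 and 1682, beside background levels of 73.1, 73.0 and 73.2. Before the software's processing its 2 hormone spots were thus close to each other. The spot lay in the row numbered 10 from the array edge, and the source of the change was not tested. By processed signal the probes differed over calcidiol. Against vehicle it was at -0.20 ± 0.20 by the first and at -0.46 ± 0.20 by the second. The hormones differed by 0.10 ± 0.20 and by 0.46 ± 0.20, and for the second probe the raw brightness did not show that gap. Against vehicle, calcitriol was at -0.10 and 0.00. The signs of the small calcitriol differences of Lpcat3 and Pltp, and of the Apoe difference between the hormones, turned when arrays were centred on the median, to 0.01, 0.06 and 0.13. The same centring moved the Apoe differences from vehicle to -0.10 and -0.23 and the Lpcat3 difference between the hormones to 0.30.

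**Figure D3:**
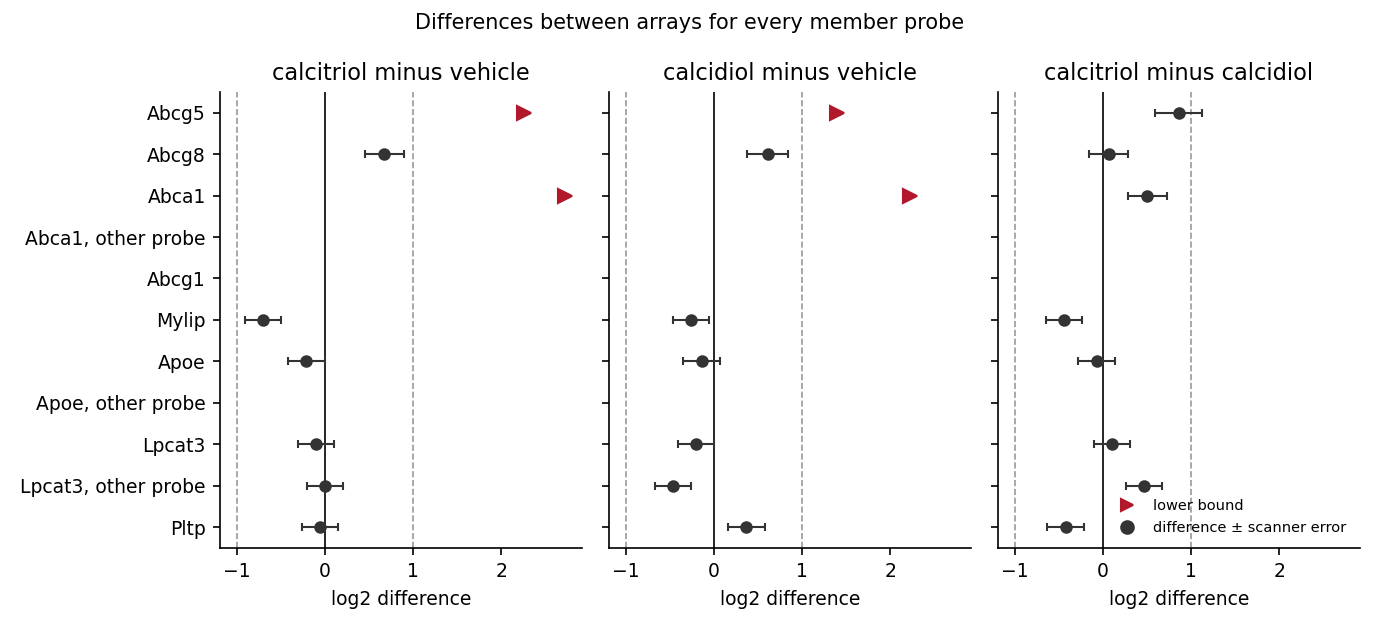
Log2 difference of each member probe for calcitriol minus vehicle, calcidiol minus vehicle and calcitriol minus calcidiol; points carry the scanner error, triangles are lower bounds, dashed lines mark 2-fold, and rows without a mark had no measured pair. Only the Abcg5 and Abca1 bounds lie past a dashed line, and the 3 measured differences beyond 0.6 in size against vehicle are those of Abcg8 (0.67 and 0.61) and Mylip (-0.71).

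Counts of measured members past 2-fold are set beside the shares of all genes. With so few members and such small shares, counts of 0 could hardly have come out otherwise. No conclusion about the members is drawn from them. With calcitriol, 0 of 5 measured members were 2-fold higher, where 1.00% of 16653 genes were, and 0 were 2-fold lower, where 1.57% were. With calcidiol the counts were also 0 of 5, beside 0.859% of 16646 genes higher and 0.144% lower. Calcitriol differs from calcidiol by an added hydroxyl group at carbon 1, and the doses and times were matched. Between these hormones 0 of 7 members were apart, beside 0.467% higher and 1.37% lower with calcitriol. The median over the measured members was -0.10 with calcitriol and -0.14 with calcidiol, where the medians of all genes were 0.01 and -0.01. These members passed the filter on dim probes and leave out Abcg5 and Abca1, the members with the highest bounds.

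The receptors that control the group were examined next. Nr1h2, which encodes LXR beta, was well above background on all arrays, at 3777 with vehicle, 3093 with calcitriol and 3815 with calcidiol. Its differences were -0.31 ± 0.20 and -0.09 ± 0.20, and its other measured probe gave -0.29 and -0.44. Nr1h3, which encodes LXR alpha, did not pass the background call on any array by either of its 2 probes, and neither did Rxrg and Pparg. Rxra, the common partner, gave differences of -0.10 and -0.39 for calcitriol and calcidiol on the brighter probe but 0.13 and 0.19 on the other, so its direction differed between probes. Vdr was at -0.19 ± 0.20 and -0.28 ± 0.20. Of 12 measured receptors and cofactors, 1 was 2-fold higher and 1 was 2-fold lower with calcitriol, and none passed with calcidiol. The higher gene was Nrip1, a corepressor of nuclear receptors, at 523 with vehicle, 1170 with calcitriol and 909 with calcidiol, or 1.14 ± 0.20 and 0.69 ± 0.20 above vehicle, and its other 4 probes averaged 1.20 and 0.68. The lower gene was Ppara, a fatty acid receptor, at 78.7 with vehicle, 39.8 with calcitriol and 62.8 with calcidiol, whose other probe gave -0.44 with calcitriol and which did not pass 2-fold under median centring, quantile normalisation, normexp or the deposited value table. The list median was -0.09 with calcitriol and -0.07 with calcidiol, and median centring turned the first to 0.03 and moved the second to -0.16.

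A list of 32 other genes described as liver X receptor targets was used to see whether the members stood with their pathway. Of these, 22 were measured with calcitriol and vehicle, of which 1 was 2-fold higher and 1 lower, and 23 with calcidiol and vehicle, of which none was 2-fold apart. Tgm2, a transglutaminase, was at 4840 with vehicle, 10064 with calcitriol and 6818 with calcidiol, or 1.04 and 0.39 above vehicle. Mertk, a receptor for the clearance of dying cells, was at 45.5, 21.8 and 36.1, or -1.08 and -0.44, and it was not 2-fold lower under median centring, quantile normalisation, normexp or the deposited value table. Srebf1, the lipogenic factor that liver X receptors are known to raise, was at -0.26 with calcitriol and -0.03 with calcidiol. Its lipogenic partners Scd1 (-0.48 and -0.44), Scd2 (-0.46 and -0.06) and Fasn (-0.15 and -0.14) were below vehicle by less than 2-fold. The scanner error was 0.20 for each, and Fasn with each hormone and Srebf1 and Scd2 with calcidiol lay within it. Of the list, 6 of 22 genes with calcitriol and 5 of 23 with calcidiol were above 0. Among them were Npc2 (0.46 and 0.25), Arl4c (0.18 and 0.135) and, with calcitriol only, Clu (0.45 and -0.19). The lowest measured gene with calcidiol was Pnpla3, a lipid droplet hydrolase, at -0.50. Lpl, Smpdl3a, Cyp7a1, Rgs16, Apoc1, Apoc2, Apod and Nr0b2 were among those that did not pass the background call on any array. The median was -0.15 with calcitriol and -0.14 with calcidiol, and 16 of 22 and 18 of 23 genes lay below 0, beside 48.0% and 51.3% of all genes. With median centring these medians were -0.04 and -0.23 and the counts 14 of 22 and 19 of 23.

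Related transporters were read the same way. Of 14 other ABCA and ABCG genes, 6 were measured with calcitriol and vehicle and 7 with calcidiol and vehicle, and none was 2-fold apart. Their medians were -0.14 and -0.18, or -0.02 and -0.27 with median centring. The highest with calcitriol was Abca3, a surfactant lipid transporter, at 0.03, and the lowest was Abcg2, an exporter of drugs and urate, at -0.35. With calcidiol they ran from Abca2, at -0.10, to Abca9, at -0.32. Abca7, the close relative of Abca1, was at -0.17 and -0.24, and Abcg4, the close relative of Abcg1, at -0.15 and -0.18. Abca2, Abca7 and Abcg4 were also counted among the other liver X receptor targets above, so these lists overlap. Abca6, Abca8a, Abca12, Abca13 and Abcg3 did not pass the background call on any array. Abca8b was well above background with each hormone and not with vehicle, but by a different 1 of its 3 probes with each hormone.

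Genes that make, modify or store the sterols sensed by liver X receptors showed few differences past 2-fold. Of 11 genes of oxysterol and cholesterol catabolism, 6 were measured and none was 2-fold apart with either hormone, with medians of -0.16 and -0.01, or -0.05 and -0.10 with median centring. They ran from Sult2b1, an oxysterol sulfotransferase, at -0.48 to Hsd3b7, a bile acid synthesis enzyme, at 0.18 with calcitriol, and from Cyp46a1, a cholesterol 24-hydroxylase, at -0.51 to Cyp39a1 at 0.10 with calcidiol. Ch25h, Cyp27a1 and Cyp7b1, which form or clear oxysterols, did not pass the background call on any array. Of 19 genes of sterol traffic and storage, 18 were measured and 1 was 2-fold lower with calcitriol. That gene was Cav1, the coat protein of caveolae, at 95.1 with vehicle, 31.3 with calcitriol and 103 with calcidiol. Its differences were -1.62 ± 0.25 with calcitriol, 0.01 ± 0.21 with calcidiol and -1.62 ± 0.25 between the hormones, and its other probe gave -1.03, 0.09 and -1.12. With normexp, an offset of 50 and quantile normalisation together it was no longer 2-fold lower in either. The list medians were -0.01 and -0.07, and median centring turned the first to 0.11 and moved the second to -0.15. The highest genes were Osbp, an oxysterol-binding protein, at 0.36 with calcitriol, and Soat1, which esterifies cholesterol, at 0.17 with calcidiol, and the lowest with calcidiol was Tspo, a mitochondrial outer membrane protein, at -0.47.

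Lipoprotein uptake genes and targets of SREBP2, the factor that raises cholesterol synthesis, stood mostly below vehicle with calcitriol by less than 2-fold. All 20 listed genes were measured, 20 of 20 were below 0 with calcitriol and 17 of 20 with calcidiol, and the medians were -0.34 and -0.13. These counts use the brightest probe of each gene. The other Vldlr probe gave 0.31 with calcitriol, where the brightest gave -0.22. For every other listed gene with other measured probes, those averaged below 0 with calcitriol. In all genes 48.0% and 51.3% were below 0. With median centring the counts were 19 of 20 and 18 of 20 and the medians -0.23 and -0.22, so the gap between the hormones was not seen under that scaling. Lrp8, a receptor for apolipoprotein E and reelin, was the gene 2-fold lower with calcitriol, at 201 with vehicle, 80.6 with calcitriol and 172 with calcidiol, or -1.33 ± 0.21 and -0.33 ± 0.21. Between the hormones it was at -1.01 ± 0.21, past 2-fold but not under median centring, quantile normalisation, normexp or the deposited value table. Its other probes averaged -0.65 with calcitriol against vehicle and -0.18 between the hormones, and the difference from vehicle was not 2-fold with normexp, offset and quantile normalisation together. The highest genes were Scap, which escorts SREBP proteins, at -0.10 with calcitriol, and Vldlr at 0.16 with calcidiol, and the lowest with calcidiol was Dhcr7, an enzyme of cholesterol synthesis, at -0.43.

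The listed genes of the LPCAT family and of phospholipid remodelling were all measured, and 0 of 10 were 2-fold apart with either hormone. The medians were 0.08 with calcitriol and 0.04 with calcidiol, and median centring moved the first to 0.20 and turned the second to -0.05. With calcitriol they ran from Agpat3, a lysophospholipid acyltransferase, at -0.13 to Lcat, which esterifies cholesterol in lipoproteins, at 0.37 ± 0.29. Lcat was dim, at 25.4 with vehicle and 33.2 with calcitriol. With calcidiol they ran from Mboat2 at -0.21 to Agpat1 at 0.34.

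**Figure D4:**
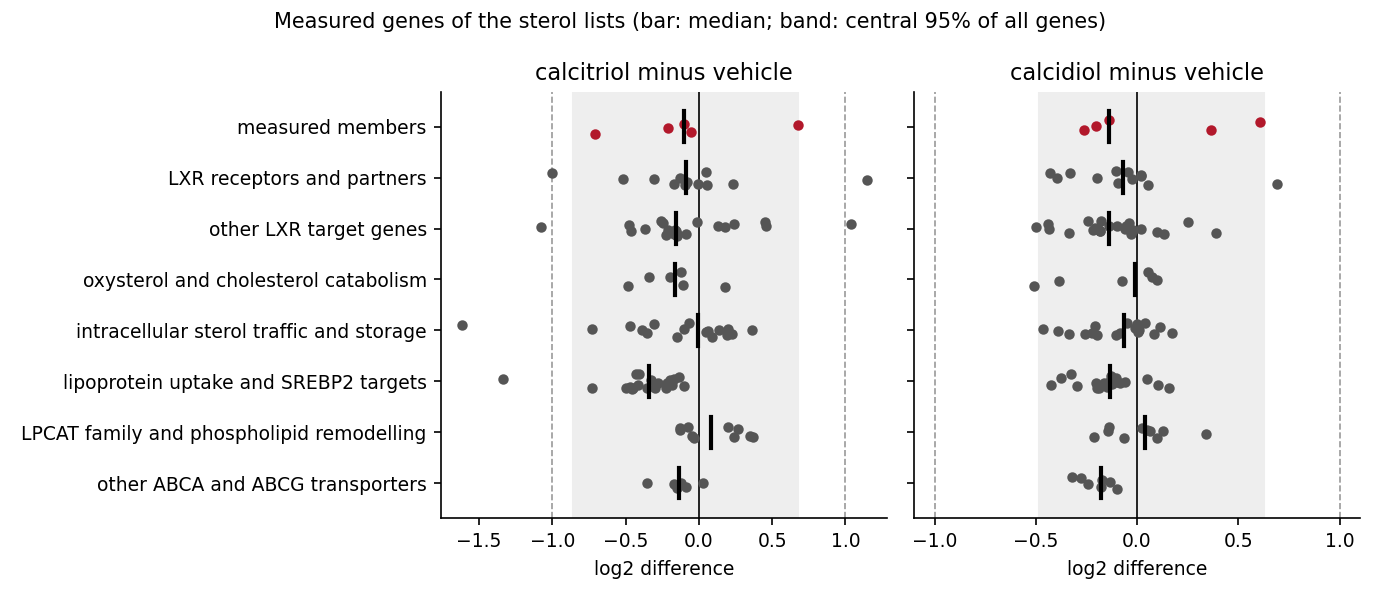
Log2 difference from vehicle of each measured gene (points) in the member group and 7 pathway lists, for calcitriol and calcidiol, with the list median as a black bar, the central 95% of all genes as a grey band and dashed lines at 2-fold. The member medians (-0.10 and -0.14) lie near 0, and all 20 points of the lipoprotein uptake and SREBP2 list lie below 0 with calcitriol.

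Marker genes of other cell types were read on the same arrays, since several members are well known in macrophages and other cells. Of 7 macrophage markers, Ptprc, Cd68 and Csf1r were well above background on all 3 arrays, Lyz2 with vehicle and calcidiol, and Adgre1, Mrc1 and C1qa on none. Their summed scaled signal was 2035 with vehicle, 1789 with calcitriol and 2317 with calcidiol, most of it Csf1r, whose processed signals were 1570, 1349 and 1916. Of 6 fibroblast markers, Col1a1 (-1.26 and -0.78) and Dcn (-2.35 and -0.97) were measured and below vehicle, and the other 4 did not pass the background call on any array. Their summed signal was 418, 147 and 239.5. Of 6 proximal tubule markers 2 were measured, with summed scaled signals of 2089, 5185 and 3718. Most of each sum was Lrp2, an endocytic receptor of that segment, whose processed signals before scaling were 1923, 5090 and 3812. Lrp2 was at 1.39 ± 0.20 and 0.88 ± 0.20 by its brightest probe and averaged 0.81 and 0.24 over its other measured probes, and Cubn, the other measured marker, was at -0.17 and -0.02. Of 5 collecting duct principal cell markers Aqp2 alone was measured, at -0.47 and -0.46. The 9 distal convoluted tubule markers summed to 174, 170.1 and 152. The fibroblast sum was highest with vehicle and lowest with calcitriol, the proximal tubule sum was lowest with vehicle and highest with calcitriol, and the part of any of these cell types in the member differences was not tested. In this cultured line the fibroblast and proximal tubule sums rest on 2 measured genes each, and whether such cells were present was not tested. On bulk arrays fewer cells of a type and less RNA per cell cannot be told apart.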

How the data were processed

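RNA from 3 cultures of Cyp27b1-knockout mpkDCT cells was measured on 1-colour Agilent arrays, 1 per group. Per the file headers, the deposited scanner files hold processed intensity from Agilent Feature Extraction 10.7.1.1, background-subtracted by that software, with probe positions on mm9; version 9.5.1.1 stands in the submitters' processing notes. The deposited value table holds linear intensity whose columns had equal sorted values and a log2 median of 3.71, correlated at 0.9999 with the scanner values; it served as an alternative only, and its normalisation is not stated in those sources.

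Outlier-flagged spots were dropped (1489 of 56605 probes), and log2 intensity minus each array's 75th percentile over non-control probes was compared between arrays. The brightest probe stood for each of 36335 genes, and 58.3% of probes were named through their RefSeq accession. Genes were called at 2-fold on probes well above background on both arrays. With 1 array per group no test was run, and the number of arrays limits the precision. Probes printed 10 times had a median coefficient of variation of 7.37% with vehicle, 9.76% with calcitriol and 3.76% with calcidiol, which covers spots of 1 array. The counting of measured differences was tested on simulated data, with 1 probe per gene and every probe measured. The lower bounds and the choice of the brightest probe were not part of that test.

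The text names every member probe, list genes 2-fold apart, the highest and lowest measured gene of each list with each hormone, the main receptors, Cyp27b1, Cyp24a1, and the nearest genes to the member with the largest measured difference. Srebf1, Scd1, Scd2, Fasn, Npc2, Arl4c, Clu, Abca7, Abcg4 and Abca8b were added after their values were seen. Some list genes entered the counts but are not reported here by name. The members and lists were chosen with earlier results of these data known. Python 3.11.15, R 4.3.3 and limma 3.58.1 (normexp) were used. Alternatives were other scalings, normexp with an offset of 50 and quantile normalisation, 32 added before the log, changed filters on dim probes, probe means, outlier spots kept, the value table and thresholds of 1.5-fold and 3-fold.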

Additional observations from a re-analysis of the deposited data

How the results depend on the processing

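No paired analysis was possible because each group had 1 array. In the main setting the only 2-fold calls of members were the Abcg5 and Abca1 bounds against vehicle. Their direction follows from which arrays passed the background call. The alternatives kept those background calls, so whether the direction holds was not tested. Counting probes well above background on at least 1 array gave 2 members higher with calcitriol and 2 with calcidiol, where the member median became 0.37. At 1.5-fold, 1 member was higher and 1 lower with calcitriol, 1 was higher with calcidiol, and 1 was higher with calcitriol than with calcidiol. By bound, normexp, an offset of 50 and quantile normalisation together left 1 member with calcitriol and 0 with calcidiol, and an offset of 32 alone and a 3-fold threshold each left 1 with calcidiol. Median centring put 1 member past 2-fold between the hormones. Without genes below the 25th percentile, every comparison kept 3 members, Mylip, Lpcat3 and Pltp, and left out Abcg8 and Apoe. Abcg5 and Abca1 were also left out between the hormones, where the member median was -0.42. Over all genes, the 167 higher and 262 lower with calcitriol became 228 and 181 under median centring, which moved the median of all genes by over 0.1 to 0.13. With calcidiol 143 and 24 became 110 and 40, and between the hormones 77 and 226 became 152 and 123, with the median of all genes at 0.22. In the same order of comparisons, they became 93 and 105, 77 and 4, and 33 and 127 with that combination, and 112 and 131, 78 and 7, and 48 and 108 with the offset of 32 alone. Detection on at least 1 array gave 355 and 612, 449 and 227, and 225 and 619. Without genes below the 25th percentile they were 97 and 140, 71 and 7, and 43 and 127. At 1.5-fold they were 595 and 976, 485 and 216, and 378 and 887, and at 3-fold 68 and 45, 40 and 3, and 23 and 53. Signals near background limit Abcg1, Abcg5 and Abca1, and the dim signals of Abcg8 and Apoe are a limit as well. With 1 array per group variation between cultures is unknown.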
